A study of Homo sapiens with 14 samples.

Results

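The comparison described here sets LNCaP-abl against LNCaP, both given vehicle only. Its arrays were selected by the sample labels alone, as the H2O and DMSO arrays of either cell line, which makes 8 of the 14 arrays in the series. LNCaP is a human prostate cancer line derived from a lymph node metastasis, which depends on androgen for growth. LNCaP-abl is a subline obtained from LNCaP by long culture without androgen and provided by the laboratory that made it. LNCaP was grown in RPMI-1640 with 10% fetal bovine serum, and LNCaP-abl in RPMI-1640 without phenol red and with 10% charcoal-stripped serum, from which steroid hormones have been removed. Each line had 2 arrays with H2O and 2 with DMSO, collected at 48 h. The treatment text of these arrays names bufalin or control, and no array labelled with bufalin was analysed here. The other 6 arrays, 3 of each line, came from cells given 50 µM dilazep, an inhibitor of nucleoside transport. Their values are given here only where stated, but they were normalised and fitted together with the controls. The line, its serum and the phenol red of its medium go together in every array, so a difference between the cells and a difference between the media cannot be told apart. LNCaP-abl is represented by 1 subline. Whether the replicates came from separate cultures is not stated in the labels, and the spread behind the p-values may therefore be technical.

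Androgens act through the androgen receptor, a nuclear receptor that moves to the nucleus when it binds testosterone or dihydrotestosterone and binds DNA with the pioneer factors FOXA1 and GATA2. In luminal prostate cells it raises secretory genes such as KLK3, which encodes prostate-specific antigen, and lowers others, among them the UGT2B enzymes that conjugate androgens for removal. Tumours that grow under androgen deprivation often regain part of this programme, and LNCaP-abl has served as a laboratory model of that state. Values for the receptor gene itself are not analysed here.

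Each gene is given by its level, the log2 of its background-corrected and quantile-normalised intensity plus an offset of 16, and by its difference in level, LNCaP-abl minus LNCaP, averaged over both vehicles. A gene was called where limma gave an adjusted p under 0.05 over all 11983 genes, and "rose", "fell", "higher by" and "lower by" are used of called genes. Standard errors of the named differences lay between 0.07 and 0.33. Median signals of the 8 arrays lay between 146.1 and 154.6, and 19100 to 19856 probes were detected per LNCaP array and 18495 to 19196 per LNCaP-abl array (detection p-value under 0.05). The prostate luminal markers KRT8, KRT18, EPCAM, CDH1, HOXB13 and KLK3 were detected on all 4 arrays of each line. Of the markers of other cell types, PECAM1 (endothelium) and SYP (neuroendocrine cells) were detected on no control array, CD14 (monocytes) and CHGA (neuroendocrine cells) on 1 LNCaP array and no LNCaP-abl array, and COL1A1 (fibroblasts) on 4 LNCaP and 3 LNCaP-abl arrays at mean levels of 6.10 and 5.42. INSM1 (neuroendocrine cells) was detected on 4 LNCaP and 2 LNCaP-abl arrays, at mean levels of 5.50 and 5.29, and LYZ (lysozyme of myeloid cells) on 3 of each, at 5.51 and 5.33. VWF, the von Willebrand factor of endothelium, was detected on all 8 arrays and differed by -2.68 (SE 0.14, adjusted p = 1.9e-08). Of the wider marker lists, 2 of 4 measured immune genes were higher, among them the T cell gene CD8A (at least 2.66-fold higher, detected on no LNCaP array), and 1 of 2 fibroblast genes was lower. Each array came from a cultured cancer cell line, and the source of these marker signals was not tested. Fewer transcripts per cell and fewer cells with the transcript cannot be told apart in such bulk RNA.

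The level of 49% of the genes tested differed between the lines. Of 11983 genes, 5871 were called, 3006 higher in LNCaP-abl (25.1%) and 2865 lower (23.9%). The counts of list members given below are to be read beside these shares. A difference of at least 1 on the log2 scale was called for 1235 genes (10.3%), 586 higher (4.89%) and 649 lower (5.42%). A gene detected on none of a line's 4 arrays has only a lower bound on its difference, taken from the lowest detected level on those arrays, and with such genes at their bound the number was 1141. The median difference over all genes was 0.00, and the median absolute difference 0.31. The 4 arrays of one line lay entirely above the 4 of the other for 5456 genes (45.5%). Across genes, which are not independent replicates, arrays of the same line correlated at 0.990 to 0.992 in LNCaP and 0.989 to 0.992 in LNCaP-abl, and arrays of different lines at 0.954 to 0.957. The first principal component of the 8 arrays held 81.1% of the variance and separated the lines, and the next held 4.48%.

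The vehicle made no difference that was called. No gene was called by limma between DMSO and H2O (532 had an unadjusted p under 0.05, 4.44% of those tested, and the smallest adjusted p was 0.758). Nor was any gene called for a line difference that depended on the vehicle (498 had an unadjusted p under 0.05, 4.16%). Of the 5871 genes called between the lines, 5845 differed in the same direction with H2O as with DMSO, and 3289 were called in that direction with each vehicle alone.

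Of the 15 largest rises, 6 were cancer-testis genes and the others belonged to different families. OR51E2, an olfactory-type G protein-coupled receptor known for its high level in prostate, stood first. Its level was 5.13 and 5.07 with H2O and 4.61 and 5.01 with DMSO in LNCaP, against 13.02 and 12.91 with H2O and 12.84 and 12.89 with DMSO in LNCaP-abl. It was not detected on any LNCaP array and was at least 201-fold higher in LNCaP-abl (adjusted p = 2.7e-13), a bound taken against the dimmest detected signal. SLC7A5, the LAT1 carrier of large neutral amino acids, was detected in both lines and rose 34.9-fold, from 6.07 ± 0.05 (mean ± SD, n = 4) to 11.20 ± 0.06 (n = 4). Other rises of this size were IL32, a cytokine (5.51 on the log2 scale, and 3.62 on its other probe), EPHX4 of the epoxide hydrolase family (5.37), HENMT1, the methyltransferase that protects piRNA ends (5.26), NDP, which encodes the Wnt-receptor ligand norrin (5.25), CCNO, a cyclin of multiciliated cells (4.83), HTATIP2 (at least 26.2-fold) and RGS2, an inhibitor of Gq signalling (at least 19.6-fold). In LNCaP, IL32 and NDP were detected on 1 of 4 arrays, CCNO on 2 and EPHX4 on 3, so those differences rest on a dim signal on one side. CT45A3, PAGE1, CTAG2, MAGEA4, NXF2 and MAGEA1 were the cancer-testis genes among the 15.

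The largest fall was that of EEF1A2, the translation elongation factor isoform of muscle and neurons. Its level was 12.48 and 12.92 with H2O and 12.94 and 12.81 with DMSO in LNCaP, against 5.76 and 5.44 with H2O and 5.85 and 5.80 with DMSO in LNCaP-abl, which is 135-fold lower (adjusted p = 1.4e-12). The groups of arrays were far apart, and the SD within a line was at most 0.21. Among the other falls were the synaptic organiser CBLN2 (at least 53.2-fold), the axonal kinesin KIF1A (at least 20.9-fold), the neuropeptide galanin, encoded by GAL (-5.34 on the log2 scale), the RNA-binding gene RALYL (at least 30.2-fold) and MARCKS, a protein kinase C substrate (-5.35). TMEM205 was at least 57.4-fold lower, MAP1LC3A, an LC3 protein of autophagosomes, at least 30.3-fold, and COX7B2, a testis form of a cytochrome oxidase subunit, at least 15.6-fold. DSEL, a dermatan sulfate epimerase, was at least 35.9-fold lower on its brightest probe, while another probe gave -1.99 on the log2 scale. The prostate genes TMEFF2, AZGP1 and SPON2, the butyrylcholinesterase gene BCHE and the tight-junction gene CLDN3 complete these 15. On LNCaP-abl arrays GAL was still detected on 3 of 4 and BCHE on 1 of 4.

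**Figure D1:**
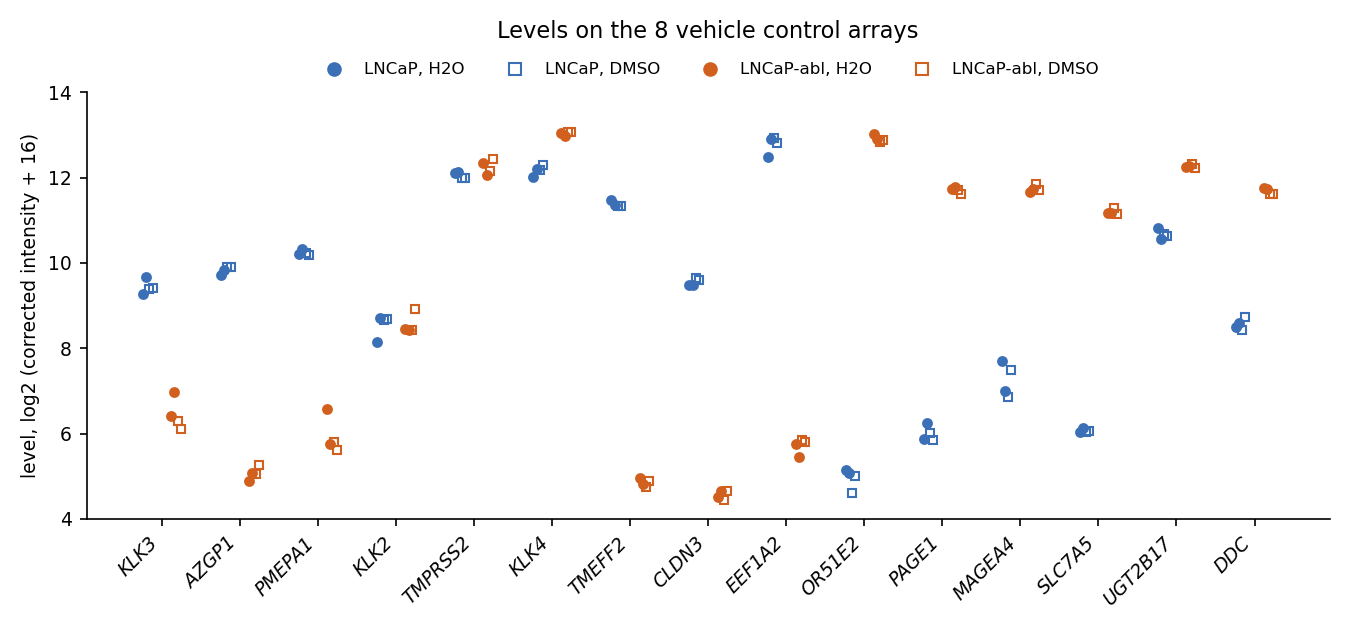
Level (log2 of corrected intensity plus 16, vertical axis) of 15 genes on each of the 8 vehicle control arrays. Circles are H2O arrays, open squares DMSO arrays, blue LNCaP and orange LNCaP-abl. KLK2 and TMPRSS2 overlap between the lines, and the other 13 genes do not.

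Classical androgen-induced genes were lower in LNCaP-abl more often than higher. Of 41 measured, 21 were called lower and 11 higher, with a median difference of -0.32. Over all genes the shares were 23.9% lower and 25.1% higher and the median was 0.00. The median of the list was -0.14 with H2O alone and -0.30 with DMSO alone. KLK3 had levels of 9.27 and 9.67 with H2O and 9.38 and 9.40 with DMSO in LNCaP, against 6.42 and 6.96 with H2O and 6.29 and 6.12 with DMSO in LNCaP-abl. The groups did not overlap, and KLK3 fell 7.91-fold (log2 difference -2.98, SE 0.16, adjusted p = 1.9e-08). AZGP1, a secreted zinc-binding glycoprotein, went from 9.84 ± 0.09 to not detected on any LNCaP-abl array, at least 23.3-fold lower. PMEPA1, an androgen-induced inhibitor of TGF-beta signalling, fell by 4.30 on the log2 scale, and by 3.99 and 0.93 on its other probes. The solute carrier SLC45A3, known as prostein, fell by 1.53, and the glucocorticoid- and androgen-induced chaperone FKBP5 by 0.57 (adjusted p = 6.6e-04). FKBP5 had levels of 10.64 and 10.65 with H2O and 10.71 and 10.74 with DMSO in LNCaP, against 10.09 and 10.13 with H2O and 9.87 and 10.39 with DMSO in LNCaP-abl, a small difference in which the lines did not overlap. The elongation factor ELL2 fell by 1.80, and GNMT, a glycine methyltransferase, was at least 3.30-fold lower.

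Other androgen-induced genes were not lower. KLK2, the closest relative of KLK3 and a gene induced by androgen in the same cells, had levels of 8.15 and 8.70 with H2O and 8.65 and 8.68 with DMSO in LNCaP, against 8.45 and 8.42 with H2O and 8.43 and 8.91 with DMSO in LNCaP-abl. These overlap, and the difference was 0.00 with a standard error of 0.16 (adjusted p = 0.98). The difference between KLK3 and KLK2 was not tested. TMPRSS2, the serine protease whose promoter drives the ETS fusions of prostate cancer, differed by 0.19 (SE 0.10, adjusted p = 0.14). KLK4 rose by 0.86, the metastasis-associated stress gene NDRG1 by 1.33 and the prostaglandin receptor PTGER4 by 1.40. The proteoglycan gene SPOCK1, not detected on any LNCaP array, was at least 4.68-fold higher. KLK4 had levels of 12.02 and 12.21 with H2O and 12.18 and 12.29 with DMSO in LNCaP, against 13.04 and 12.98 with H2O and 13.06 and 13.07 with DMSO in LNCaP-abl, and the lines did not overlap. The kallikreins of this list thus included a gene that was lower, a gene not called and a gene that was higher.

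Because KLK3 and KLK2 are neighbours with related promoters, both promoter windows are shown (RefSeq, GRCh38.p14, 250 bases before to 50 after the transcription start). KLK3 lies at chr19:50854665-50854964 on the plus strand and KLK2 at chr19:50873189-50873488 on the plus strand. Capitals mark a stretch of 15 bases that starts, in KLK3, with AGAACA, the hexamer to which an androgen receptor monomer binds.
KLK3: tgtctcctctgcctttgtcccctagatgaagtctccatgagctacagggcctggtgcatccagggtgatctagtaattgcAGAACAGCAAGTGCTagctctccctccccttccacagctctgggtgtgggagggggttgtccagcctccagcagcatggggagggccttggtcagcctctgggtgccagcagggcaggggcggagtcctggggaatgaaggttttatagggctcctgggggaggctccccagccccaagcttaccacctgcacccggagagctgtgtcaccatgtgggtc
KLK2: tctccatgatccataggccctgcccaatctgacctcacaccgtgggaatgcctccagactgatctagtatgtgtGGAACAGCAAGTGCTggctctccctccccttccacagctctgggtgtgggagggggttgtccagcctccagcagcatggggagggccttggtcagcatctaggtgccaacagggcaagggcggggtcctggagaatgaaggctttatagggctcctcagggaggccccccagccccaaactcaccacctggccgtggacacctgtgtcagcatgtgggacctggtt
The stretch begins 170 bases before the start of KLK3 and 176 before that of KLK2, and matches at 14 of 15 positions. The difference, counted from the first capital of KLK3, is A1G. The motif AGAACA, searched on both strands, was present in 14.9% of 27305 promoters, in 8.99% of 9567 promoters of tested genes, in 3 of 17 promoters of androgen-induced genes called lower (17.6%) and in 2 of 14 of the others (14.3%). A match is only a description of the sequence.

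The pioneer factors of the receptor differed by small amounts. GATA2 was higher by 0.35 (SE 0.09, adjusted p = 0.0078). Its levels were 8.55 and 8.53 with H2O and 8.41 and 8.52 with DMSO in LNCaP, against 8.68 and 8.99 with H2O and 8.78 and 8.97 with DMSO in LNCaP-abl. The groups did not overlap, but with the H2O arrays alone the difference was 0.29 and was not called. FOXA1 was lower by 0.21 and HOXB13 by 0.29 (adjusted p = 0.038 and 0.046), in overlapping groups. The FOXA1 call was lost on leaving out LNCaP H2O replicate 3, LNCaP DMSO replicate 2 or 3, LNCaP-abl H2O replicate 2 or LNCaP-abl DMSO replicate 3 (adjusted p 0.0793 to 0.129). The HOXB13 call was lost without LNCaP H2O replicate 3, LNCaP DMSO replicate 3 or any LNCaP-abl array (adjusted p 0.0539 to 0.157). Both calls were also lost with each vehicle alone, with median scaling of the arrays in place of quantile normalisation (adjusted p 0.109 and 0.151) and in the fit blocked by replicate number (0.0628 and 0.0770), and that of FOXA1 with the 8 control arrays fitted alone (0.102). The grainyhead factor GRHL2 rose by 0.49 and the coactivator NCOA1 fell by 0.49. In all, 2 of 12 measured receptor partners were called higher and 3 lower.

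Androgen-repressed genes moved both ways. Of 16 measured, 9 were called higher (56.2%) and 5 lower (31.2%), beside 25.1% and 23.9% over all genes, with a median of 0.64. Among the enzymes that glucuronidate androgens, UGT2B17 rose from 10.67 ± 0.11 to 12.27 ± 0.04, a difference of 1.60 (SE 0.08, adjusted p = 1.2e-08), and UGT2B10 was higher by 0.49, while UGT2B28 was lower by 0.75. For UGT2B11 and UGT2B15 the probes disagreed in sign, with 1.01 and 0.90 on the brightest and -0.46 and -0.80 on another. These genes are close relatives whose probes may share targets. DDC, aromatic amino acid decarboxylase, had levels of 8.51 and 8.60 with H2O and 8.42 and 8.74 with DMSO in LNCaP, against 11.75 and 11.72 with H2O and 11.61 and 11.61 with DMSO in LNCaP-abl, a rise of 8.62-fold. Steep falls were those of BCHE, butyrylcholinesterase (-6.07, and -5.32 on its other probe), CAMK2N1, an inhibitor of CaM kinase II (-4.16), and MMP16, a membrane metalloproteinase (-2.90, and -0.46 on its other probe), and BCHE and MMP16 were each detected on 1 of 4 LNCaP-abl arrays.

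Enzymes that make or inactivate steroids were lower more often than higher. Of 21 measured, 8 were called lower (38.1%) and 3 higher (14.3%), beside 23.9% and 25.1% over all genes. The median was -0.18, -0.10 without LNCaP H2O replicate 3 and -0.10 with genes below background in a line at their bound. CYP11A1, which cleaves the side chain of cholesterol, was lower by 1.51 and detected on 1 of 4 LNCaP-abl arrays. Cytochrome b5, encoded by CYB5A, was lower by 0.75 and the glucocorticoid-inactivating HSD11B2 by 0.40. AKR1C2, a ketosteroid reductase that inactivates dihydrotestosterone, was higher by 1.14 and was detected on 1 of 4 LNCaP and 4 of 4 LNCaP-abl arrays. The cholesterol transfer protein gene STARD3 rose by 0.85. Retinoid genes leaned the same way, with 7 of 13 called lower (53.8%) and 3 higher (23.1%), and a median of -0.29 (-0.13 at the bounds). The receptors RXRA (-0.81) and RARA (-0.72) and the retinal dehydrogenase ALDH1A3 (-0.65) fell, and the retinoid-induced DHRS3 rose (0.75). PLAAT4, also induced by retinoids and not detected on any LNCaP array, was at least 1.42-fold higher. Targets of other hormones moved both ways: 7 of 16 were called higher and 5 lower. DIO1, the thyroid-hormone-induced deiodinase, rose by 2.47, the estrogen-induced TFF3 by 1.26, the vitamin D target TRPV6 by 0.89 and the glucocorticoid target CRISPLD2 by 1.31, while another glucocorticoid target, KLF15, fell by 1.13.

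**Figure D2:**
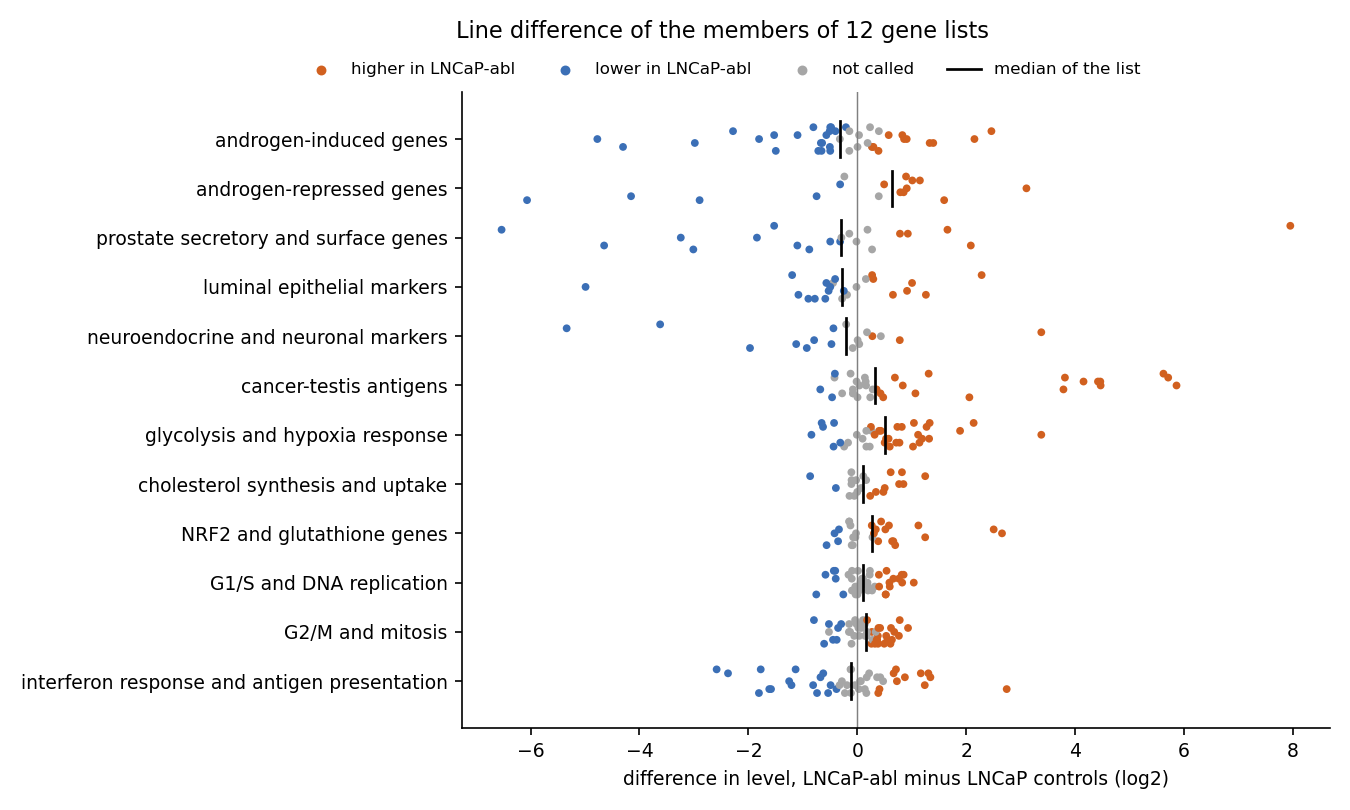
Difference in level (LNCaP-abl minus LNCaP controls, log2, horizontal axis) of each measured member of 12 gene lists. Orange points are genes called higher, blue called lower, grey not called, and the black bar is the median of the list. The isolated point at the far right of the prostate list is OR51E2.

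Genes of prostate secretion and the cell surface included the largest rise of all, OR51E2, and one of the largest falls, TMEFF2. Of 20 measured, 10 were called lower (50%) and 5 higher (25%), beside 23.9% and 25.1% over all genes (median -0.30). TMEFF2, a transmembrane protein of prostate and brain, had levels of 11.49 and 11.37 with H2O and 11.35 and 11.35 with DMSO in LNCaP, against 4.96 and 4.82 with H2O and 4.75 and 4.88 with DMSO in LNCaP-abl. It was detected on no LNCaP-abl array and was at least 67.7-fold lower. The secreted matrix protein gene SPON2 fell by 4.65, the gamma-chain transcript TARP by 3.24 and PRAC1, a small nuclear protein of prostate, rectum and colon, by 3.01. On the other side stood OR51E2, the related receptor OR51E1 (1.66, detected on 1 of 4 LNCaP arrays) and AMACR (2.09), the racemase used as a stain for prostate cancer. FOLH1, which encodes prostate-specific membrane antigen, was lower by 0.31, with -1.51 on another probe.

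The wider list of luminal markers moved both ways. Of 23 luminal markers, 11 were called lower (47.8%) and 7 higher (30.4%), beside 23.9% and 25.1% over all genes (median -0.28). CLDN3, a tight-junction claudin, was at 9.55 ± 0.08 in LNCaP and not detected on any LNCaP-abl array, at least 19-fold lower. The keratin KRT19 fell by 1.20 and the mucin gene MUC1 was at least 1.26-fold lower, while E-cadherin (CDH1) rose by 0.91 and the peptidase DPP4, detected on 1 of 4 LNCaP arrays, by 2.28. Basal and mesenchymal markers gave 2 higher and 3 lower of 12. MSN, the cortical actin linker moesin, fell by 3.40. AHNAK, a large scaffold protein gene, changed by -3.07 on its brightest probe and by -0.26 on another. TWIST1, a mesenchymal transcription factor, was at least 2.37-fold lower, and fibronectin (FN1, detected on 1 of 4 LNCaP arrays) and the integrin ITGA6 rose by 0.83 and 0.70. Neuroendocrine and neuronal markers mark a form of prostate cancer that no longer depends on the receptor. Of 17, 8 were called lower (47.1%) and 3 higher (17.6%), with a median of -0.20 (-0.083 at the bounds). Beside GAL, the synaptotagmin SYT4 fell by 3.62 and the neuronal tubulin TUBB3 was at least 3.04-fold lower. A large rise in this list was that of ENO2, a neuronal enolase that is also a hypoxia target, with levels of 6.90 and 7.00 with H2O and 7.06 and 7.12 with DMSO in LNCaP, against 10.32 and 10.38 with H2O and 10.27 and 10.64 with DMSO in LNCaP-abl and a rise of 10.4-fold.

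Cancer-testis genes, which are silent in most adult tissues outside the germ line and are found in many tumours, contributed 6 of the 15 largest rises. Of 34 measured, 17 were called higher and 3 lower (median 0.32), beside 25.1% and 23.9% over all genes. The list holds 62 genes. Of the 34 measured, 25 were detected on at least 1 LNCaP control array and 33 on at least 1 LNCaP-abl control array. A gene silent on all LNCaP arrays was measured only if LNCaP-abl arrays detected it, which can raise the share called higher. PAGE1 had levels of 5.88 and 6.25 with H2O and 6.0 and 5.85 with DMSO in LNCaP, against 11.73 and 11.78 with H2O and 11.70 and 11.62 with DMSO in LNCaP-abl, a rise of 52.4-fold. MAGEA4 had levels of 7.71 and 7.01 with H2O and 6.86 and 7.48 with DMSO in LNCaP, against 11.66 and 11.73 with H2O and 11.86 and 11.70 with DMSO in LNCaP-abl and rose 22.2-fold. In neither gene did the lines overlap, and MAGEA4 varied more among LNCaP arrays (SD 0.40) than among LNCaP-abl arrays (SD 0.08). On their brightest probes CT45A3 was at least 48.2-fold, CTAG2 at least 32.9-fold and CTAG1A at least 11-fold higher, with no detection on any LNCaP array. Other probes gave smaller log2 differences, 5.24 and 5.53 for CT45A3, 2.88 for CTAG2 and 2.92 and 3.06 for CTAG1A. MAGEA1 rose by 4.42 (1.73 on its other probe) and the mRNA export factor NXF2 by 4.47. The family did not move as one: on their brightest probes MAGEA2 (-0.08), MAGEA3 (0.28), MAGEA6 (0.15) and MAGEA12 (0.24) were not called with all arrays. Other probes gave -0.23 and -0.61 for MAGEA2, 0.28 and 0.72 for MAGEA6 and 0.05 for MAGEA12. By limma the MAGEA2 probe at -0.61 was called lower (adjusted p = 0.0128) and the MAGEA6 probe at 0.72 higher (adjusted p = 0.0134). Without LNCaP-abl DMSO replicate 3, MAGEA3 (0.47, adjusted p = 0.0048) and MAGEA12 (0.33, adjusted p = 0.039) were called higher. PRAME (-0.41, with -0.15 on another probe) and MAGED1 (-0.46) were called lower. The CT45A, CTAG and GAGE genes are near-identical copies, so signal on their probes cannot be assigned to 1 copy.

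Promoters of a pair of genes that rose, PAGE1 and MAGEA4, and of a pair that was lost in LNCaP-abl, TMEFF2 and CLDN3, are shown with each CpG in capitals, as these genes had some of the largest changes (RefSeq, GRCh38.p14). PAGE1 lies at chrX:49695935-49696234 on the minus strand, MAGEA4 at chrX:151912224-151912523 on the plus strand, TMEFF2 at chr2:192194884-192195183 on the minus strand and CLDN3 at chr7:73770221-73770520 on the minus strand.
PAGE1: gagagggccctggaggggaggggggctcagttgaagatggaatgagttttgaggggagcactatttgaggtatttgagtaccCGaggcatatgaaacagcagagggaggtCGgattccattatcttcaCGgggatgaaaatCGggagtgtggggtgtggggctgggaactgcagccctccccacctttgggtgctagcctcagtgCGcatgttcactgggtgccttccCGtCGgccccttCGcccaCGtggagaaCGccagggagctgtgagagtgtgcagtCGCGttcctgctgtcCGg
MAGEA4: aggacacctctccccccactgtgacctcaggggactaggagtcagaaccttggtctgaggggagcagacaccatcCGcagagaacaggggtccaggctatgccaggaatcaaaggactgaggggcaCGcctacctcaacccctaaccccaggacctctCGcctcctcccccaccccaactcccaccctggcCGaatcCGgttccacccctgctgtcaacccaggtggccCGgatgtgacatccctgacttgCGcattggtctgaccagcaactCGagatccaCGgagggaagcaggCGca
TMEFF2: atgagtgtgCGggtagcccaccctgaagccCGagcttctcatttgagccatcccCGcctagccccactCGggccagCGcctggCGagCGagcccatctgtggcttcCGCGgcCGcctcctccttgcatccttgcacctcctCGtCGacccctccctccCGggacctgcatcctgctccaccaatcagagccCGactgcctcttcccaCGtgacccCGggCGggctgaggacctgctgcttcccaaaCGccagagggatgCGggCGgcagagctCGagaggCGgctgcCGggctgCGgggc
CLDN3: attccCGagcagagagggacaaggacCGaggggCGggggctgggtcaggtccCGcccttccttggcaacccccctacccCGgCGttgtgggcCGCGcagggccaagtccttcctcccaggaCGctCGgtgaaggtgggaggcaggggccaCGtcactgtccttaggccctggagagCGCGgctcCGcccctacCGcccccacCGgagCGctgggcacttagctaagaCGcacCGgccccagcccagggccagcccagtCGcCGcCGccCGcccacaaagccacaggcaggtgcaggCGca
The windows hold 13, 10, 24 and 24 CpG. The median over 9567 promoters of tested genes was 26. Cancer-testis genes called higher had a median of 11.5 over 10 promoters (8 to 14), and those not called higher one of 13 over 14 promoters (1 to 21), so the sets overlapped. Methylation was not measured.

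Some genes were detected in one line alone. On all 4 LNCaP-abl arrays and no LNCaP array, 185 genes were detected, of which 184 were called and 41 were at least 4-fold higher by the bound. The reverse held for 240 genes, 236 of them called and 46 at least 4-fold lower. Over all genes 49% were called. Both groups were picked by detection on these same arrays, so that nearly all were called follows from the choice. Beyond those already named, the group seen in LNCaP-abl included the secreted signal WNT5A (at least 8.42-fold higher), the fibroblast growth factor homologue FGF13 (at least 3.72-fold higher) and the detoxifying enzyme GSTM1 (at least 3.92-fold higher). WNT5A had levels of 4.50 and 4.91 with H2O and 4.63 and 4.67 with DMSO in LNCaP, against 8.31 and 8.33 with H2O and 8.35 and 8.36 with DMSO in LNCaP-abl, with little spread in LNCaP-abl. The group seen in LNCaP included the ephrin receptor EPHA3 (at least 4.46-fold lower), the Wnt antagonist NKD2 (at least 4.56-fold lower) and the imprinted genes PEG3 (at least 6.90-fold lower), PHLDA2 (at least 3.49-fold lower) and NAP1L5 (at least 2.18-fold lower). Of all 19 measured imprinted genes, 4 were called higher and 4 lower (21.1% each), beside 25.1% and 23.9% over all genes. Promoters of the 130 genes of the first group with a sequence had a median of 21 CpG, and those of 178 genes of the second group 21.

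Glycolytic and hypoxia-response genes were higher in LNCaP-abl. Of 37 measured, 23 were called higher (62.2%) and 6 lower (16.2%), beside 25.1% and 23.9% over all genes. The median was 0.50, and the medians with H2O and DMSO alone were 0.49 and 0.54. The carbonic anhydrase CA12 had levels of 6.51 and 6.37 with H2O and 6.37 and 6.26 with DMSO in LNCaP, against 8.69 and 8.50 with H2O and 8.40 and 8.47 with DMSO in LNCaP-abl, and the lines did not overlap. CA12 rose by 2.14, the fructose-2,6-bisphosphate enzyme PFKFB2 by 1.89, the phosphofructokinase PFKP by 1.32, the aldolase ALDOA by 1.14 and ENO2 as given above. LDHA (0.17, with 0.15 and 0.88 on other probes) and ENO1 (0.10), the main lactate dehydrogenase and enolase, were not called, and the glucose carrier SLC2A1 (-0.43) and HIF1A itself (-0.44) were lower. Of the genes of oxidative phosphorylation, 8 of 38 were called higher and 3 lower (median 0.07, and 0.03 without LNCaP-abl H2O replicate 3), a share of calls (28.9%) below the 49% of all genes.

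Lipid genes rose in part. In cholesterol synthesis and uptake, 9 of 21 were called higher and 2 lower (median 0.11), led by mevalonate decarboxylase MVD (1.25), squalene epoxidase SQLE (0.85), HMGCS1 (0.82) and mevalonate kinase MVK (0.61), while the prenyl synthase GGPS1 fell (-0.87). In fatty acid synthesis the count was 8 higher (40%) and 6 lower (30%) of 20. The elongase ELOVL6 rose by 2.03, fatty acid synthase FASN by 0.66 and the desaturase SCD by 0.65. Elongases of polyunsaturated chains were lower, ELOVL5 by 0.83, and ELOVL2, not detected on any LNCaP-abl array, was at least 1.19-fold lower. Of 12 efflux and LXR-target genes, 4 rose, among them the lysosomal exporter NPC1 (0.97) and ABCA1 (0.81, detected on 2 of 4 LNCaP arrays), and the LDL-receptor ligase MYLIP fell (-0.68).

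Antioxidant genes were higher more often than lower, 14 (51.9%) against 4 (14.8%) of 27, beside 25.1% and 23.9% over all genes (median 0.28). GSTM1 and GSTM2 are glutathione transferases with similar sequences, detected on no LNCaP array and on 1 of 4. GSTM2 rose by 2.51, the lipid peroxide reductase GPX4 by 1.12, the first enzyme of glutathione synthesis GCLC by 1.25 and the superoxide dismutase SOD1 by 0.70. The NRF2 target NQO1 was lower by 0.34, with -0.05 on another probe. Among targets of ATF4, the transcription factor of amino acid stress, 13 of 39 were called higher (33.3%) and 9 lower (23.1%), with a median of 0.05. Leaving out 1 array moved this median by over 1.5 times for 6 of the 8 arrays, the exceptions being LNCaP H2O replicate 3 and LNCaP-abl H2O replicate 2, with a lowest value of 0.0015 without LNCaP DMSO replicate 3 and a highest of 0.12 without LNCaP DMSO replicate 2. SLC7A5 and its partner SLC3A2 (0.87) rose, as did DDIT3 (0.93) and STC2 (1.14). SLC3A2 gave 0.45 on another probe. Cystathionase, encoded by CTH, fell by 1.57, and its other probes gave -0.61 and -0.55. Asparagine synthetase ASNS (-0.11) and ATF4 itself (0.13) were not called. Of 22 metallothioneins and zinc transporters, 3 were called higher and 8 lower. The metallothionein MT1X fell by 1.56 and the importers SLC39A6 and SLC39A8 by 1.03 and 1.24, and the exporter SLC30A1 rose by 1.31.

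Cell-cycle genes differed by small amounts, and more were higher than lower. In G1/S and DNA replication, 13 of 42 were called higher, 6 lower and 23 not called (median 0.11). In G2/M the counts were 20 of 48 higher, 7 lower and 21 not called (median 0.17). These are 31% higher and 14.3% lower in G1/S and 41.7% higher and 14.6% lower in G2/M, beside 25.1% and 23.9% over all genes. The share called in either direction was 45.2% in G1/S and 56.2% in G2/M, beside 49% over all genes. MCM5, a subunit of the replicative helicase, had levels of 8.46 and 8.97 with H2O and 8.67 and 8.60 with DMSO in LNCaP, against 9.72 and 9.44 with H2O and 9.35 and 9.59 with DMSO in LNCaP-abl, and the lines did not overlap. The helicase genes MCM4, MCM5 and MCM6 rose by 0.76, 0.85 and 0.54, while MCM3 and MCM7 differed by 0.19 and -0.03 on their brightest probes. Thymidine kinase TK1 rose by 0.66 and the checkpoint kinase BUB1 by 0.93, while CCNE1 (-0.75), CCNA2 (-0.61) and the kinesin KIF20A (-0.80) fell. UBE2C (-0.15) and CDK1 (-0.13), mitotic genes bound by the receptor in androgen-independent prostate cancer cells, were not called (adjusted p = 0.18 and 0.46). MKI67 differed by 0.02 and was not called. Of 15 G1 cyclins and inhibitors, 4 were called higher and 5 lower (median -0.20). CCND3 (0.60), CDKN2D (0.80) and CCNG2 (0.80, with 0.55 and 2.10 on other probes) rose. The inhibitor CDKN1C, not detected on any LNCaP-abl array, was at least 1.11-fold lower, and CDK2 (-0.34, and -0.09 on its other probe) fell. MYC was lower by 0.50 (adjusted p = 0.0020), although 16 of 38 MYC-target and ribosome-biogenesis genes were called higher and 4 lower (median 0.16). CAD, which starts pyrimidine synthesis, rose by 0.90, and RCL1, an 18S rRNA processing gene, fell by 1.71.

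Growth factor genes moved both ways, with more higher than lower. Of 31 ligands, receptors and feedback regulators, 15 were called higher (48.4%) and 7 lower (22.6%), beside 25.1% and 23.9% over all genes. The median was 0.19, 0.30 without LNCaP H2O replicate 3 and 0.29 without LNCaP DMSO replicate 2. Among ligands, EGF rose by 1.5 and the ephrin EFNB2 fell by 3.67 and was detected on 1 of 4 LNCaP-abl arrays. Among receptors, EPHA3 was at least 4.46-fold lower. The brightest probe of FGFR3 fell by 1.69, detected on 1 of 4 LNCaP-abl arrays. Another FGFR3 probe gave -0.01. The brightest probe was chosen anew whenever an array was left out. The FGFR3 difference was then -0.18 without LNCaP H2O replicate 1 and -0.07 without LNCaP DMSO replicate 3. These values may be those of the other probe. In the IGF axis, IGF1 had levels of 5.17 and 5.50 with H2O and 5.39 and 5.52 with DMSO in LNCaP, against 7.40 and 7.51 with H2O and 7.48 and 7.18 with DMSO in LNCaP-abl and was detected on 3 of 4 LNCaP arrays. It rose by 2.00, and the receptor-bound adaptor GRB10 by 2.70 (2.62 and 0.58 on its other probes), whereas the IGF2-clearing receptor IGF2R fell by 0.94. The adaptor gene IRS1 was at least 1.90-fold higher and IRS2 at least 2.22-fold lower. Of 24 Wnt and Notch genes, 9 were called higher (37.5%) and 8 lower (33.3%). The Wnt-receptor ligase RNF43, like WNT5A not detected on any LNCaP array, was at least 2.63-fold higher. NOTCH3 fell by 1.68 and the Notch-responsive HES4 by 1.37. TGF-beta and BMP genes were lower more often, 9 against 3 of 16 (median -0.32): the receptor BMPR1B fell by 3.54 (another probe gave -1.74) and was detected on 3 of 4 LNCaP-abl arrays, the pseudoreceptor BAMBI by 1.22, the BMP target ID3 by 0.92 and GDF15 by 1.06.

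Interferon and antigen-presentation genes moved both ways, with a share called higher near that of all genes. Of 45 measured, 11 were called higher (24.4%) and 16 lower (35.6%), beside 25.1% and 23.9% over all genes. The median was -0.11, -0.043 at the bounds and -0.017 without LNCaP H2O replicate 3. The class II chaperones HLA-DMA and HLA-DMB fell by 2.37 and 2.58, the ubiquitin-like ISG15 by 1.81 and IFI6 by 1.58 (-0.64 on another probe), while HERC5, the ligase that attaches ISG15 to proteins, rose by 2.75. HERC5 had levels of 7.38 and 7.36 with H2O and 7.46 and 7.20 with DMSO in LNCaP, against 10.27 and 9.94 with H2O and 9.99 and 10.19 with DMSO in LNCaP-abl, and the lines did not overlap. Among HOX and partner genes, 1 of 14 was called higher and 6 lower, and in the HOXB cluster HOXB7 was at least 1.99-fold higher and HOXB5 at least 2.20-fold lower. Of 20 Polycomb and DNA methylation genes, 3 were called higher (15%) and 6 lower (30%). The Polycomb subunits CBX2 (-0.87), JARID2 (-0.68) and RING1 (-0.54) fell, CBX7 (0.80) rose and EZH2, the methyltransferase, was not called (-0.01, with 0.07 and -0.37 on other probes). Among p53 targets and death regulators, 6 of 29 were called higher and 6 lower (20.7% each), near the shares over all genes. BAX, the pore-forming effector, fell by 2.03 on its brightest probe, detected on 1 of 4 LNCaP-abl arrays, and another probe gave -0.18.

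The share of genes called in each direction differed between chromosomes. Chromosomes and gene order are those of RefSeq GRCh38.p14. On chromosome 9, 45 of 473 tested genes were called higher and 212 lower (9.51% and 44.8%), with a median of -0.27. On chromosome 2, 322 of 760 were higher and 90 lower (42.4% and 11.8%), with a median of 0.21, on chromosome 21, 59 of 127 were higher and 12 lower (46.5% and 9.45%), and on chromosome 8, 161 of 435 higher and 63 lower (37% and 14.5%). Over all genes these shares were 25.1% and 23.9%. The remaining chromosomes had between 18.2% and 27% called higher and between 19.5% and 33.6% called lower. These chromosomes were singled out after their values were seen, and no test was made.

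**Figure D3:**
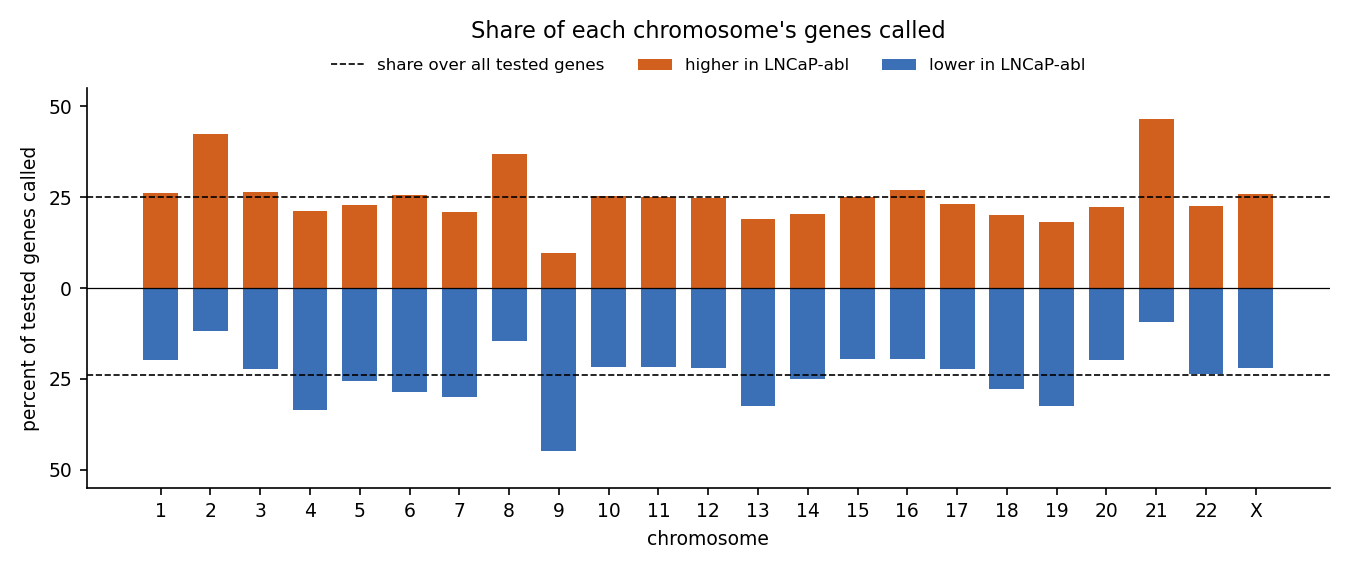
Percent of the tested genes of each chromosome called higher (orange, upward) or lower (blue, downward) in LNCaP-abl. Dashed lines are the shares over all tested genes, 25.1% higher and 23.9% lower, and chromosomes 2, 8, 21 and 9 stand apart from them.

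A median over 31 neighbouring genes was used to mark stretches of chromosomes. The stretches were picked where this median of the same control differences lay below -0.2 or above 0.2. Their medians and counts in the controls therefore follow in part from the choice, and no test was made. On chromosome 9 the longest stretch below -0.2 held 126 tested genes from ODF2 to EHMT1, with 7 called higher, 68 lower and a median of -0.34. On chromosome 2 the longest stretch above 0.2 held 78 tested genes from NCOA1 to THUMPD2, with 45 called higher, 3 lower and a median of 0.35. On chromosome 21 a stretch held 50 tested genes from RBM11 to RCAN1, with 26 called higher, 6 lower and a median of 0.43, and on chromosome 8 one held 94 tested genes from PDP1 to MIR1206, with 52 called higher, 7 lower and a median of 0.34. The end of chromosome 19 was low over 64 tested genes from U2AF2 to MZF1, with 2 called higher, 39 lower and a median of -0.53. The lowest median was that of a stretch on chromosome 6, over 55 tested genes from GMNN to SNORD32B, with 5 called higher, 38 lower and a median of -0.66. This stretch holds the histone gene cluster: 27 of its genes are clustered histone genes, with 22 called lower and a median of -1.19, and of the other 28, 16 were called lower and 5 higher, with a median of -0.37. Under dilazep the same stretches had medians of -0.61, 0.41, 0.35, 0.36, -0.49 and -0.12, so that of these 6 stretches the one on chromosome 6 was nearest to 0 under dilazep.

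**Figure D4:**
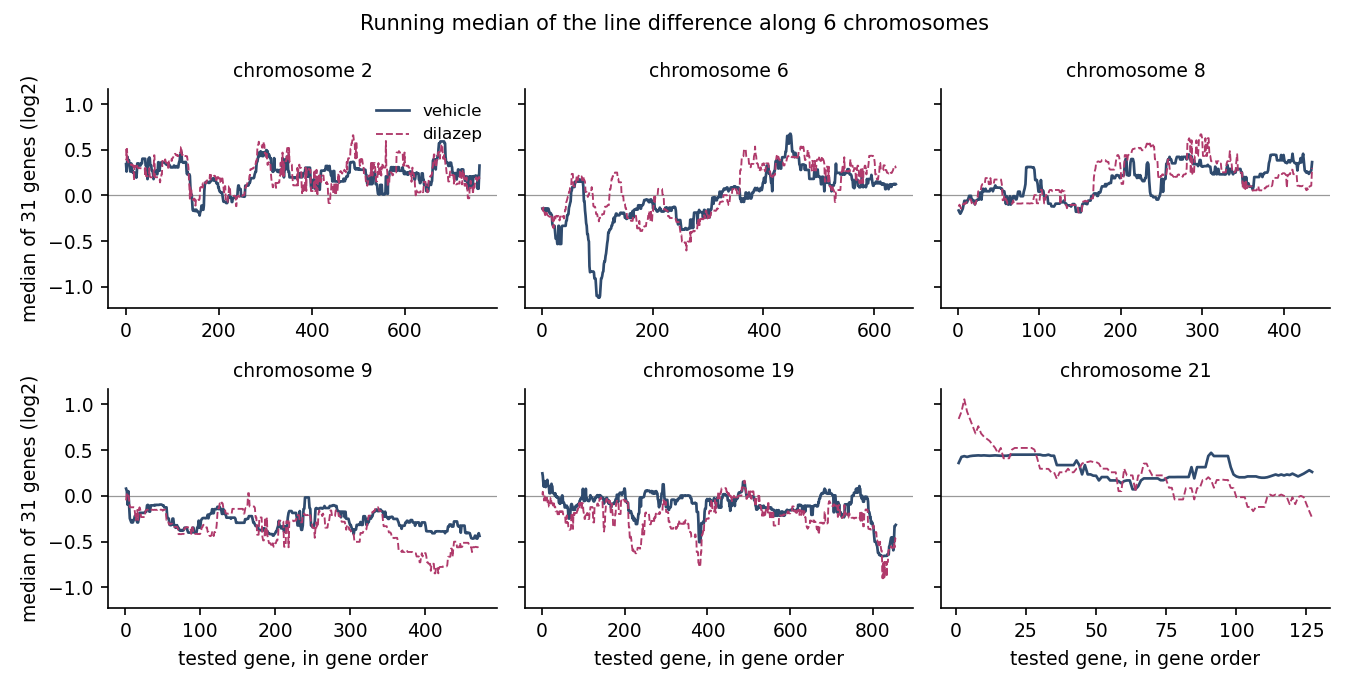
Running median over 31 tested genes of the line difference (log2, vertical axis) in gene order (horizontal axis) along 6 chromosomes, for the vehicle arrays (solid) and the dilazep arrays (dashed). Chromosome 9 lies mostly below 0 and chromosome 2 mostly above 0 in either set of arrays, and the trough on chromosome 6 is much shallower with dilazep.

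The 6 dilazep arrays share no sample with the controls and were compared between the lines in the same fit. Normalisation, the choice of probes and the estimate of the spread were shared, so the 2 sets of calls are not fully independent. Their treatment text names dilazep where that of the control arrays names bufalin, and the labels do not say whether both sets were run together, so a difference between runs and one between treatments cannot be told apart. Between the lines under dilazep, 54.6% of genes were called. Of the 1235 genes called by at least 1 in the controls, 1059 were called in the same direction under dilazep, 25 in the opposite one and 151 were not called. Of all 5871 called genes, 3479 were called in the same direction and 489 in the opposite one. Under dilazep OR51E2 and SLC7A5 were detected on no LNCaP array and were at least 405-fold and 78.6-fold higher in LNCaP-abl, and KLK3 was detected on no LNCaP-abl array and was at least 13.4-fold lower. TMEFF2 differed by -7.02 and EEF1A2 by -8.28, each detected on 1 of 3 LNCaP-abl arrays, and PAGE1 by 5.22. The line difference itself differed between control and dilazep arrays for 4056 genes (33.8%). Among them, the lines were closer under dilazep for UGT2B17 (0.23) and GRB10 (0.62), with adjusted p for the difference of 8.1e-06 and 4.6e-07. IGF1 was detected on no dilazep array. The cancer-testis list had a median of 0.59 under dilazep, glycolysis and hypoxia genes one of 0.06, and the cell-cycle lists -1.70 (G1/S) and -2.04 (G2/M), of the opposite sign to those in the controls. Detection on all arrays of LNCaP-abl and none of LNCaP was seen again under dilazep for 78 of 185 genes, and the reverse for 131 of 240.

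**Figure D5:**
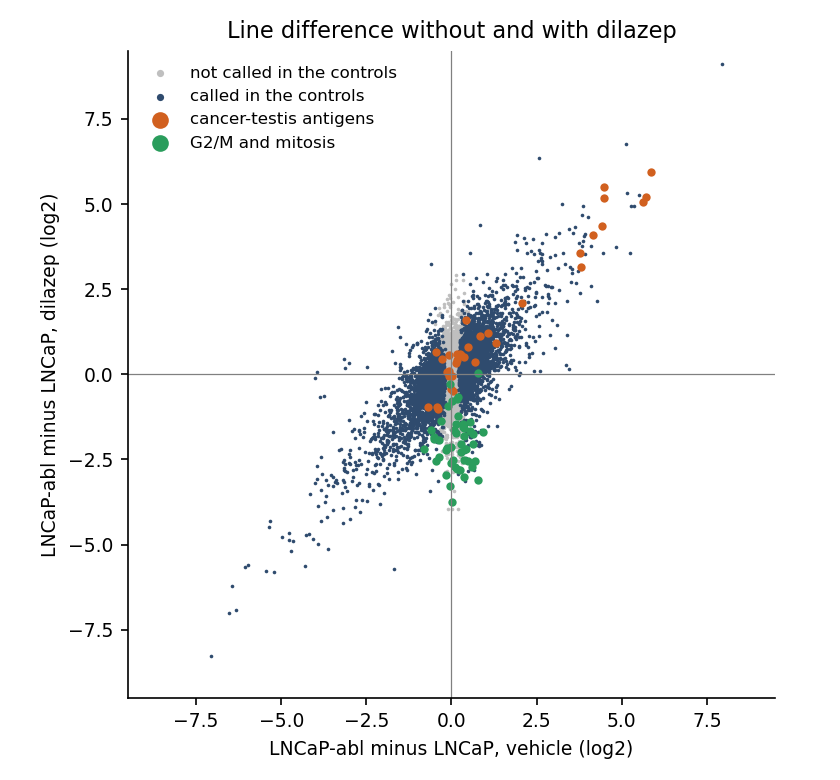
Line difference (LNCaP-abl minus LNCaP, log2) of each tested gene in the vehicle arrays (horizontal axis) and in the dilazep arrays (vertical axis). Dark points are genes called in the controls, grey points not called, orange cancer-testis genes and green G2/M genes, which lie near 0 in the controls and mostly below -1 with dilazep.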

How the data were processed

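The 8 vehicle arrays (2 per line and vehicle) were compared in a fit to all 14 Illumina arrays. Per the file headers, the deposited table gives each probe an intensity, on a linear scale in its values, and a detection p-value, and states no scaling. A further table deposited by the authors holds processed log2 values (lumi, per the submitters' processing notes) and served as an alternative. Of 47422 probes, 99 were repeat listings. Intensities were background-corrected and quantile-normalised with neqc (limma 3.58.1, R 4.3.3, offset 16), and 24894 probes detected on at least 2 arrays were kept. The brightest kept probe stood for each gene, named by the platform annotation with symbols updated through Entrez identifiers. Of the kept probes, 8963 had no single symbol and stood for no gene (2028 called between the lines). Without the detection filter 12393 genes could be tested, as many as with the authors' processed values. Markers with no annotated probe, among them KRT5, TP63 and PTPRC, were not measured. With 1 mean per group, lmFit and eBayes tested LNCaP-abl minus LNCaP two-sided, with Benjamini-Hochberg adjustment, and the fit was tested on simulated data. A gene detected on no array of one line is given as a bound, which holds for its brightest probe. Named genes are the 15 largest changes in each direction, a fixed panel and up to 5 called members of each list with the smallest p. A further 31 genes were chosen after their values were seen, to show list or family members on the other side or not called. The members and lists were chosen with earlier results of these data known. Precision is limited by the number of arrays. Figures used matplotlib 3.10.9.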

Additional observations from a re-analysis of the deposited data

Results flagged for a closer look

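The line difference differed between the control and the dilazep arrays by limma's test of that difference for 118 of 216 named genes, beside 33.8% of all genes, and 16 of these were called in opposite directions. Genes higher in LNCaP-abl in the controls and lower under dilazep had, with the change of the log2 difference (dilazep minus control) in parentheses, these values: TK1 (-3.48), CDCA3 (-3.32), MCM4 (-2.85), CDC25A (-2.66), BUB1 (-2.63), MCM5 (-2.47), PFKP (-1.80), MCM6 (-1.26), UGT2B10 (-1.09), GATA2 (-0.99) and RBBP4 (-0.88). They include the replication and mitosis genes MCM4, MCM5, MCM6, TK1, CDC25A, CDCA3 and BUB1. For genes lower in the controls and higher under dilazep the changes were MYLIP (0.97), MAGED1 (1.11), NQO1 (1.66), KLF15 (1.98) and CTH (2.97). The adjusted p of these 16 changes ranged from 5.8e-08 to 0.0016. GATA2 was at 0.35 in the controls and -0.64 under dilazep. Other probes of CDC25A and RBBP4 gave control differences of 0.10 and of -0.21 and 0.33. CDCA3 was detected on 1 of 3 LNCaP-abl arrays given dilazep. Whether the control and dilazep arrays were run together is not stated in the labels, and a difference between runs and one between treatments cannot be told apart. No named gene had a line difference that depended on the vehicle.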

How the results depend on the processing

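The number of genes called between the lines stayed within 1.5 times under all 20 alternatives, from 4087 with the DMSO arrays alone to 6060, and from 5249 to 5540 on leaving out any 1 control array. The number called with a change of at least 1 fell from 1235 to 814 with an offset of 50, to 430 without background correction and to 327 with the authors' processed values. The median called change was 0.884, 0.655 and 0.545 times its size under these settings. The share of calls that were higher stayed between 50.3% and 52.0%. Of 202 called named genes, 180 kept their call and direction under every alternative. Genes not called changed sign in places: on leaving out 1 array KLK2 ranged from -0.13 to 0.14, EZH2 from -0.061 to 0.033, MAGEA2 from -0.38 to 0.23 and MKI67 from -0.15 to 0.19, EZH2 was at 0.10 with the DMSO arrays alone, and MAGEA6 at -0.024 with the H2O arrays alone. UBE2C was called lower without background correction and with the authors' processed values (adjusted p = 0.047 and 0.0097). Counts called in the main direction stayed within 1.5 times for the androgen, prostate, cancer-testis, glycolysis, cholesterol, G1/S and G2/M lists and for chromosomes 2, 9 and 21, and of the list medians that of fatty acid synthesis alone changed sign (-0.03 to 0.17). On leaving out 1 array, 5 other printed list medians, none over 0.2 in size, moved by over 1.5 times: those of steroid metabolism, growth factors, interferon, ATF4 and oxidative phosphorylation genes, given in the report. Differences between replicates of the same numbers were correlated across genes between groups unlike in line and vehicle. The correlation was 0.080 for LNCaP H2O with LNCaP-abl DMSO and 0.062 for LNCaP DMSO with LNCaP-abl H2O. Pairing by replicate number within a line was not tested. The fit with the replicate number as a block called 5940 genes, and in it the FOXA1 and HOXB13 calls were lost. Signal over background limits folds of dim genes, and the number of arrays, 2 per group, limits small differences.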

Other observations

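Replication-dependent histone genes, which lie in clusters on chromosomes 6 and 1 and whose mRNAs end in a stem-loop in place of a poly(A) tail, were lower in LNCaP-abl. They were chosen after their values were seen, as all measured genes of the clustered families, so no test of the group was made. Of 39 measured, 0 were called higher and 31 lower, 17 of them by at least 1, with a median of -0.84 (-0.94 with H2O and -0.71 with DMSO), beside 23.9% lower and a median of 0.00 over all genes. Of the 39, 7 were not above background on any array of LNCaP-abl. With these at their bound, or at 0 where no bound could be given, 16 were lower by at least 1 and the median was -0.78. H2BC11 was lower by 2.91 and H2AC6 by 2.47, and H2BC8, one of those not above background in LNCaP-abl, was at least 5.96-fold lower. The linker histone gene H1-2 fell from 13.74 ± 0.03 to 12.40 ± 0.12 (SD, n = 4 each). On chromosome 6, 22 of 27 were called lower, and on chromosome 1, 9 of 11. Of 10 replacement histone genes, which are expressed outside S phase, 2 were called higher and 2 lower (median 0.08). SLBP, which binds the histone stem-loop, rose by 0.83 (adjusted p = 1.8e-06). Under dilazep 9 clustered genes were called lower and 12 higher between the lines (median 0.09). These genes are near-identical in sequence and may share probes' targets. Whether the signal came from forms with or without a poly(A) tail was not tested.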
